A study of Ginkgo biloba with 2 samples.

Results

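Chalcone synthase was followed copy by copy in ovules, labelled mature, and in leaves, labelled fully expanded, both from female trees of *Ginkgo biloba* sampled in April. There was 1 sequencing library per tissue, and how many trees went into each is not stated in the labels. The labels name no treatment, cultivar or tree age for either tissue, and total RNA was taken by a modified CTAB method. Members were the reference sequences whose BLAST description, without the species name, contains "chalcone" or "stilbene synthase". The rule found 14 of 64515 sequences, 4 of them assembled and 10 from GenBank. Identifiers of the assembled sequences, 58436 in all, carry a leaf tag. Ovule reads fell on 50240 sequences and leaf reads on 58121. The reference may thus be uneven between the tissues, and its part in the counts and folds below was not tested. All 14 descriptions read chalcone synthase, none named an isomerase or a stilbene synthase, and 8 of the 14 had fewer than 20 reads over both libraries.

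Chalcone synthase joins a coumaroyl-CoA starter with malonyl-CoA units and closes the chain to naringenin chalcone, the first committed compound of flavonoid synthesis. It belongs to the plant type III polyketide synthases, a family whose members share a fold and differ in starter, chain length and ring closure. Some relatives are not flavonoid enzymes: in Arabidopsis, the anther enzymes LAP5 and LAP6 look like chalcone synthases but make tetraketide alpha-pyrones for sporopollenin, the resistant polymer of the pollen wall. In ginkgo, flavonoids are among the compounds for which leaf extracts are best known.

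In units of 1000000 uniquely mapped reads, the depth was 4.58 in ovule and 4.25 in leaf. With 1 library per tissue no test between tissues is possible, so values below are given with an exact 95% interval for counting error, and speak for these 2 libraries. The intervals take each read as independent, and are too narrow wherever reads repeat the same molecule. In bulk tissue, fewer cells of a type and less RNA per cell cannot be told apart. A sequence was judged where its RPKM, reads per kilobase of sequence and per 1000000 mapped reads, was at least 1 in 1 or both libraries, and called at an absolute log2 ratio of RPKM + 0.5 of at least 1. Of all 56768 sequences judged, 27.3% were called toward ovule and 35.1% toward leaf. A sequence that was judged through 1 tissue alone had to lean toward it.

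The tissue labels were set against marker genes. Chlorophyll a/b-binding proteins and Rubisco activase, 48 sequences, took 908 reads per 1000000 (RPM) in ovule and 3081 in leaf, with 1 of 26 judged called toward ovule and 14 toward leaf, 6 of the 26 judged through leaf alone. The regulators GbMADS, AGAMOUS and AINTEGUMENTA, 31 sequences taken as ovule markers, took 429 RPM in ovule and 39.3 in leaf. Of 22 judged, 12 were called toward ovule and 8 toward leaf, the latter a share near that of all sequences, and 10 of the 22 were judged through ovule alone and 5 through leaf alone. GbMADS was mixed, with 9 of 18 judged called toward ovule and 7 toward leaf, and AGAMOUS had 1 call each way. Both AINTEGUMENTA sequences were at 0 leaf reads and were judged through ovule alone. Histone H3 and MCM, which mark dividing cells, took 1136 and 40.0 RPM over 25 sequences, with 17 of 23 judged called toward ovule and 3 toward leaf, 14 of the 23 judged through ovule alone. The part of these marker differences in the results below was not tested.

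The deposited annotation parts the 14 sequences into a pair of groups of different kinds. In 10 of them the best protein hit was a chalcone synthase of ginkgo itself, and the gene ontology function was a general acyltransferase activity. In the other 4 the best hit came from another plant, grapevine chalcone synthase A or the homolog PrChS1 of the pine *Pinus radiata*. All 4 carried the function tetraketide alpha-pyrone synthase and the process sporopollenin biosynthesis, and of these EX933936 and EX930203 carried naringenin-chalcone synthase activity as well. The terms are annotation, and no enzyme activity was measured. The groups are called the acyltransferase-annotated and the sporopollenin-annotated copies below, and this grouping was made after the terms had been seen.

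As deposited, the read numbers of the groups were nearly equal in ovule and far apart in leaf. The 4 sporopollenin-annotated copies had 2745 ovule reads and 5 leaf reads, which made 50.7% of the ovule reads on chalcone synthase (95% Clopper-Pearson interval, 49.4 to 52.0) and 0.911% of the leaf reads (0.296 to 2.11). The 10 acyltransferase-annotated copies had 2670 and 544 reads. In RPM, the first group was 509-fold higher in ovule (217.7 to 1568) and the second 4.55-fold (4.15 to 4.996). The intervals of these folds do not overlap, but with 1 library per tissue the difference between the groups was not tested across trees. The ovule excess of all 14 copies together, 5415 against 549 reads or 9.14-fold (8.37 to 10.0), is thus a sum over groups with quite different ratios. The acyltransferase-annotated copies also differed among themselves, from 0.511-fold for Unigene15825 to 124 against 0 reads for EX937335. The excess of all copies was 5.78-fold (5.28 to 6.34) without the most-read copy, Unigene25696. Each copy was also held at the number of different start positions its covered bases allow. The ovule reads were then 758 for the sporopollenin-annotated and 1968 for the acyltransferase-annotated copies. The former made a share of 27.8%, and the folds of these groups were 140 and 3.35. In ovule, held numbers are mostly ceilings set by the covered bases and not counts, so no counting interval is given for them.

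**Figure D1:**
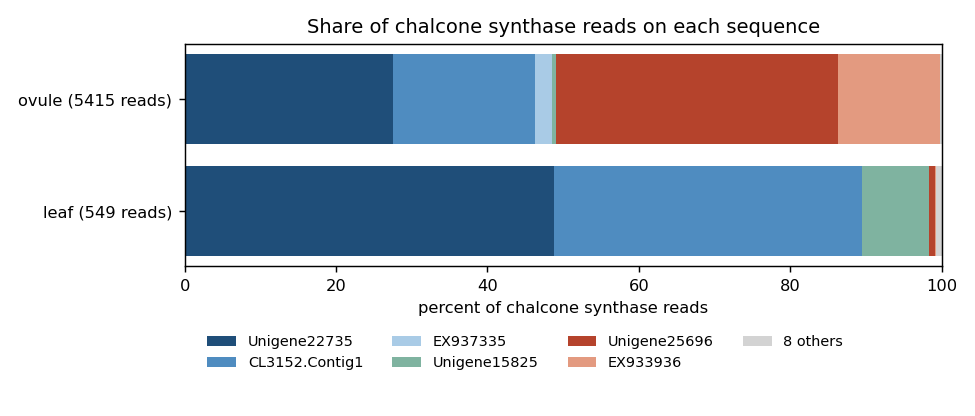
Percent of all chalcone synthase reads that fell on each sequence in the ovule library (5415 reads) and the leaf library (549 reads). Blue and green are acyltransferase-annotated sequences, red shades are sporopollenin-annotated ones and grey is the other 8 sequences together. The red part fills 50.7% of the ovule bar and is nearly absent from the leaf bar.

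Unigene22735 was the copy with the highest RPKM in either tissue. This assembled sequence of 529 bases, whose best hit was the ginkgo chalcone synthase AAS21057, had 1493 ovule and 268 leaf reads. Its RPKM was 616 in ovule (exact Poisson interval, 585 to 648) and 119 in leaf (105 to 135), a 5.16-fold difference (4.53 to 5.90). That placed it at rank 79 among all sequences in ovule and rank 923 in leaf.

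CL3152.Contig1 shares the same best hit and is the longest copy, at 1755 bases. It had 1012 ovule and 223 leaf reads, an RPKM of 126 (118 to 134) against 29.9 (26.1 to 34.1), and was 4.20-fold higher in ovule (3.63 to 4.88). The fold of Unigene22735 was 1.23 times this one, with an exact interval for counting error (1.01 to 1.498) that lies just above 1. That difference holds for the reads as deposited and not for held reads. Once held at start positions, Unigene22735 had RPKM values of 366 (ovule) and 119 (leaf). Those of CL3152.Contig1 were then 119 and 29.9, which made its fold the larger. Which copy has the larger fold is thus not settled. Whether these copies are 2 genes or 2 pieces of 1 gene cannot be read from these tables.

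Another 3 sequences had that same best hit, all from GenBank. EX937335, of 319 bases, had 124 reads in ovule against 0 in leaf. With leaf set at a floor of 3 reads the ratio is 38.3, and the counting interval on the reads themselves starts at 30.7. AY647263, of 1697 bases, had 12 and 0, a ratio of 3.71 by the same floor, with an interval from 2.57. EX936928 had a single ovule read. All 5 sequences with this hit summed to 2642 ovule and 491 leaf reads, 4.99-fold higher in ovule (4.53 to 5.50), and held 89.4% of the leaf reads on chalcone synthase (86.6 to 91.9).

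Unigene15825 went the other way. Its 1531 bases had the ginkgo chalcone synthase AAY52458 as best hit, and it received 27 ovule and 49 leaf reads. The RPKM was 3.85 in ovule (2.54 to 5.60) and 7.54 in leaf (5.58 to 9.97), 1.96-fold higher in leaf (1.20 to 3.26). Its log2 ratio of -0.89 was short of a call, but it was -1.03 under TMM scaling, a scaling on the bulk of sequences, and -1.05 in TPM, which would count as higher in leaf. Held at start positions, its RPKM was 1.71 in ovule and still 7.54 in leaf, a wider gap toward leaf. Calls were not made on held reads. It made 8.93% of the leaf reads on chalcone synthase (6.68 to 11.6) and 0.499% of the ovule reads (0.329 to 0.725). DQ054841, with the same best hit and 1608 bases, had 0 and 1 reads.

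The third ginkgo protein among the hits, AAY16976, was matched by 3 GenBank sequences with almost no reads. DR064391 had 1 read in each library, while EX932627 and EX935162 had 0 in ovule and 1 in leaf. No fold is given for these, since both libraries were at or under the floor. An RPKM of 0.819 for EX935162 in ovule would still be allowed by a count of 0. Of the 3 ginkgo chalcone synthases named by the hits, the AAS21057 set therefore leaned to ovule, the AAY52458 pair to leaf by 1.999-fold (1.23 to 3.32), and the AAY16976 set was not measurable at this depth.

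Unigene25696 carried most of the sporopollenin-annotated reads. It is assembled, 844 bases long, and had 2013 ovule and 4 leaf reads. The RPKM was 521 in ovule (498 to 544) and 1.12 in leaf (0.304 to 2.86), 466-fold higher in ovule (182 to 1713). In ovule it stood at rank 105 among all sequences, in leaf at 48880. Its best hit was grapevine chalcone synthase A, with a deposited BLAST e-value of 8.89e-64.

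EX933936, the sequence matched to pine PrChS1, showed the same contrast. It had 730 ovule reads and 1 leaf read on 774 bases, an RPKM of 206 (191 to 221) against 0.304 (0.00771 to 1.70), or 676-fold higher in ovule (121 to 26752). The remaining copies with these hits, EX930203 for grapevine and EX935118 for pine, had 1 ovule read each and none in leaf. Unigene25696 and EX933936 match different proteins. The fold of EX933936 was 1.45 times that of Unigene25696, with an interval from 0.143 to 71.5, so at 1 and 4 leaf reads no difference was detectable.

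**Figure D2:**
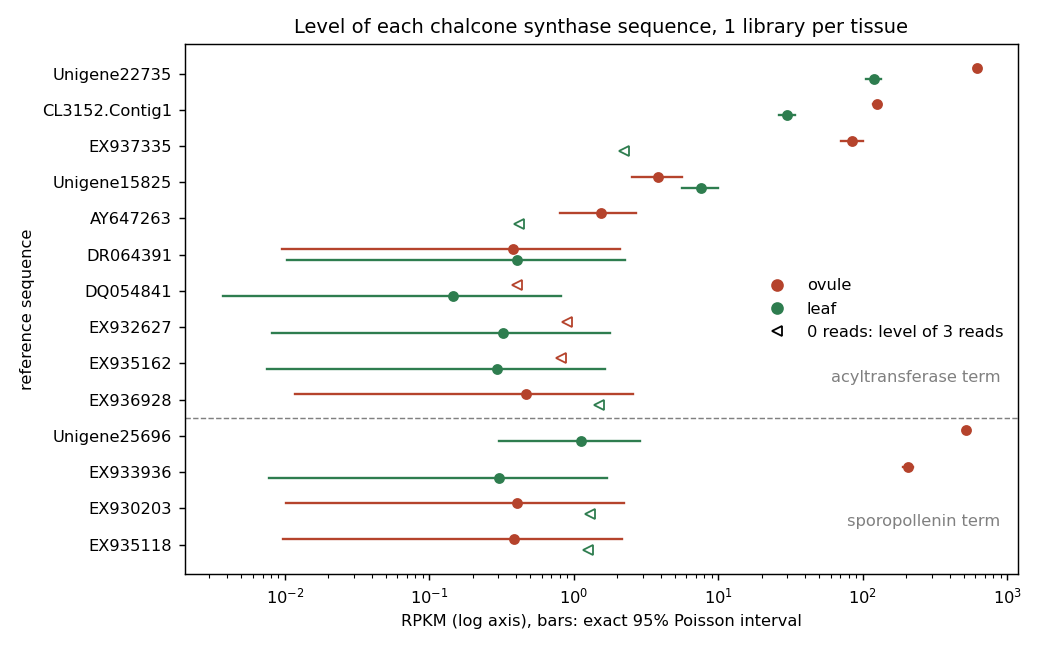
RPKM of the 14 chalcone synthase sequences on a log axis in the ovule library (red) and the leaf library (green), with exact 95% Poisson intervals. Open triangles mark 0 reads and stand at the level of 3 reads. Above the dashed line are the 10 acyltransferase-annotated sequences, below it the 4 sporopollenin-annotated ones. Unigene25696 and EX933936 fall from 521 and 206 in ovule to 1.12 and 0.304 in leaf.

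The order of RPKM, which divides by the full length however much of it was covered, differed between tissues. Ovule reads covered 93.01% of Unigene22735, 40.76% of Unigene25696 and 30.09% of CL3152.Contig1. Levels per covered base were not compared. In ovule, Unigene22735 came first, followed by Unigene25696, EX933936, CL3152.Contig1 and EX937335, which had an RPKM of 84.8 (70.6 to 101). No neighbours among these 5 had overlapping intervals. The order rests on the reads as deposited: held at their start positions, CL3152.Contig1 stood at 119, EX937335 at 64.3 and EX933936 at 46.2, behind Unigene22735 at 366 and Unigene25696 at 153. Unigene15825 and AY647263, at 3.85 and 1.54 (0.797 to 2.70), did overlap. In leaf the order was Unigene22735, CL3152.Contig1, Unigene15825 and Unigene25696, with no overlap between neighbours. The 5 leaf copies below, each with 1 read, could not be told from Unigene25696 or from each other. Reads that fit several copies equally well are not in a count of uniquely mapped reads, so levels of near-identical copies are uncertain.

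By the rule for calls, 7 of the 14 copies could be judged. Of these, 6 were higher in ovule, where 27.3% of all sequences judged were, and none was higher in leaf, where 35.1% were. The 3 copies EX933936, EX937335 and AY647263 reached the filter through ovule alone and had to lean that way, so the count by itself says little. All 6 kept an interval without 1, as did 17.3% of all sequences toward ovule and 13.6% toward leaf. The median log2 ratio was 2.36 over the 7, against -0.10 over all sequences judged.

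How the reads lay on the copies differed as well. Reads were 49 bases long, the covered length of every sequence with a single read. In ovule, the 2013 reads of Unigene25696 covered 40.76% of its bases and the 730 reads of EX933936 covered 16.8%. The median was 91.33% over assembled sequences with at least 100 ovule reads and 53.3% over such GenBank sequences. CL3152.Contig1 was covered over 30.09% in ovule and 27.35% in leaf, a similar share despite the gap in reads. Unigene22735 was covered almost throughout, 93.01% in ovule and 95.46% in leaf. Unigene15825 had 3.53% of its bases covered in ovule and 9.67% in leaf.

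Short covered stretches limit how many different reads can lie there. The 130 covered bases of EX933936 in ovule allow at most 164 start positions over both strands for its 730 reads, and the 344 of Unigene25696 allow 592 for 2013. For Unigene15825 in ovule, 54 covered bases allow 12 positions for 27 reads, whereas in leaf 148 bases allow 200 for 49 reads. In ovule, more reads than positions were found for 6 copies: these 3, Unigene22735, CL3152.Contig1 and EX937335. In leaf no copy had more reads than positions. Over all sequences with at least 100 ovule reads, 3.44% of the assembled and 29.9% of the GenBank ones had more reads than positions. How much of this is a high level and how much repeated amplification was not tested. With each copy held at its number of positions, the ovule excess of all 14 was 4.60-fold.

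**Figure D3:**
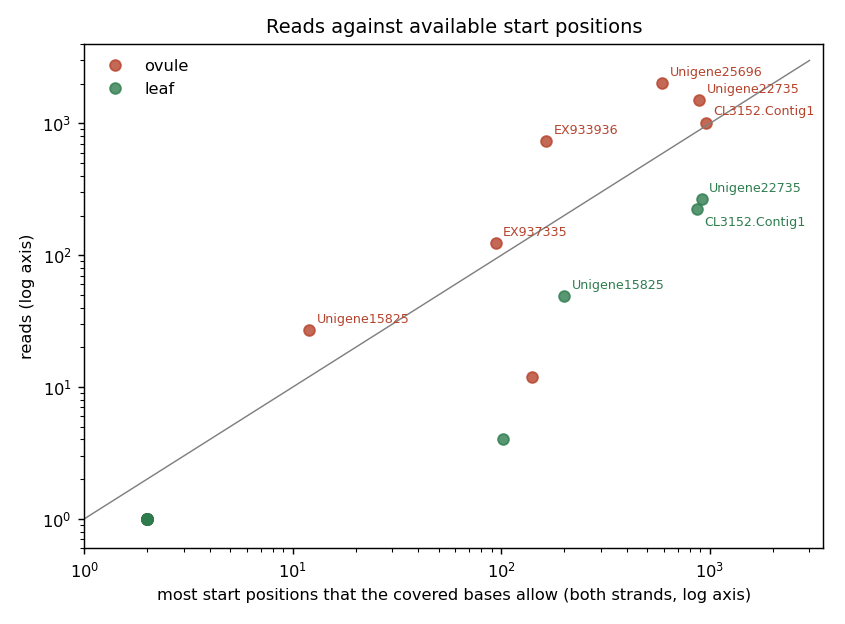
Reads on each chalcone synthase sequence against the largest number of different start positions its covered bases allow over both strands, both on log axes, for ovule (red) and leaf (green). The line marks equal numbers. In ovule 6 sequences lie above the line, with EX933936 at 730 reads on 164 positions. No leaf value lies above it.

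A pair of sequences lay outside the rule but carried a matching function term. EX931189, a GenBank sequence of 615 bases whose hit was an unnamed grapevine protein, bore the tetraketide alpha-pyrone synthase and naringenin-chalcone synthase terms. Its reads, 47 in ovule and 0 in leaf, put it at least 14.5-fold higher in ovule, with a counting interval from 11.3. DR073647 was the only sequence with the chalcone isomerase term, for the enzyme that closes the chalcone to a flavanone. Its hit was a predicted moss protein, and it had 9 ovule reads and 1 leaf read, 8.34-fold higher in ovule (1.16 to 366).

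The sporopollenin process term was borne by 14 sequences in all, 4 of them chalcone synthase copies. The other 10, among them EX931189, had 376 ovule and 141 leaf reads, 2.47-fold higher in ovule (2.03 to 3.02), with a median log2 ratio of 1.21. All 10 could be judged, and 5 were called higher in ovule and 1 (Unigene385, 0 and 6 reads) in leaf, beside 27.3% and 35.1% of all sequences. Of the 5, 4 were judged through ovule alone and had to lean that way, and the intervals of EX932084 and EX935769 included 1. Those described as cinnamoyl-CoA reductase had few reads, such as EX934511 with 21 and 2. Unigene1176, described as unknown, had the most reads, 133 and 71, and was 1.74-fold higher in ovule (1.29 to 2.35), short of a call. EX931828, likewise unknown, had 131 and 28 reads and was 4.33-fold higher in ovule (2.87 to 6.77). The ovule excess under this term thus lay mostly on the chalcone synthase copies, which held 2745 of its 3121 ovule reads.

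The remaining flavonoid steps were followed with description patterns for 10 enzymes, which matched 77 sequences. Of the 66 that could be judged, 36 were higher in ovule (27.3% of all sequences were), 11 in leaf (35.1%) and 19 in neither, with a median log2 ratio of 1.29, or 1.08 with empty libraries set at 3 reads. Through ovule alone 21 of the 66 were judged, and through leaf alone 6. Upstream of chalcone synthase, the most-read sequences of 2 steps were higher in leaf. The most-read phenylalanine ammonia-lyase (Unigene18659), which opens the pathway, was 1.61-fold higher in ovule (1.46 to 1.78). The most-read cinnamate 4-hydroxylase (Unigene18715) was 3.50-fold higher in leaf (2.89 to 4.27), and the most-read 4-coumarate-CoA ligase match, a ligase-like protein (CL309.Contig1), was 2.87-fold higher in leaf (2.52 to 3.27). Summed over their sequences these steps were closer to even, 1.66-fold (1.46 to 1.89) and 1.32-fold (1.23 to 1.42) higher in leaf, with 6 of 10 judged ligases called in neither direction, and phenylalanine ammonia-lyase was 2.01-fold higher in ovule (1.83 to 2.20).

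Downstream, the copies of largest read number leaned to ovule. Flavanone 3-hydroxylase (AY742228), which acts next after the isomerase, was 7.25-fold higher there (4.91 to 11.1). Flavonol synthase (Unigene13025), at the flavonol branch, was 14.2-fold higher (11.5 to 17.7), and anthocyanidin reductase (Unigene15457), at the proanthocyanidin branch, 19.0-fold (15.8 to 23.0). Leucoanthocyanidin reductase (Unigene17648) was 1.43-fold higher (1.11 to 1.85), but 3.01-fold (2.44 to 3.72) over all 3 of its sequences. An anthocyanidin synthase (DR064330) had 306 and 1 reads. Dihydroflavonol reductase (JQ936562) had 13 and 2, 6.02-fold higher in ovule (1.36 to 55.0). For flavonoid 3'-hydroxylase (Unigene1897), with 4 and 6 reads, no difference was detectable at this depth.

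Of all reads on these steps and chalcone synthase together, as deposited, the 14 copies took 35.5% in ovule (34.7 to 36.2) and 13.6% in leaf (12.5 to 14.7). Held at start positions, the copies had 2726 ovule and 549 leaf reads. The other steps were not held, so no share of held reads is given. With the sporopollenin-annotated copies left out, the shares were 21.3% (20.6 to 22.0) and 13.5% (12.42 to 14.5).

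**Figure D4:**
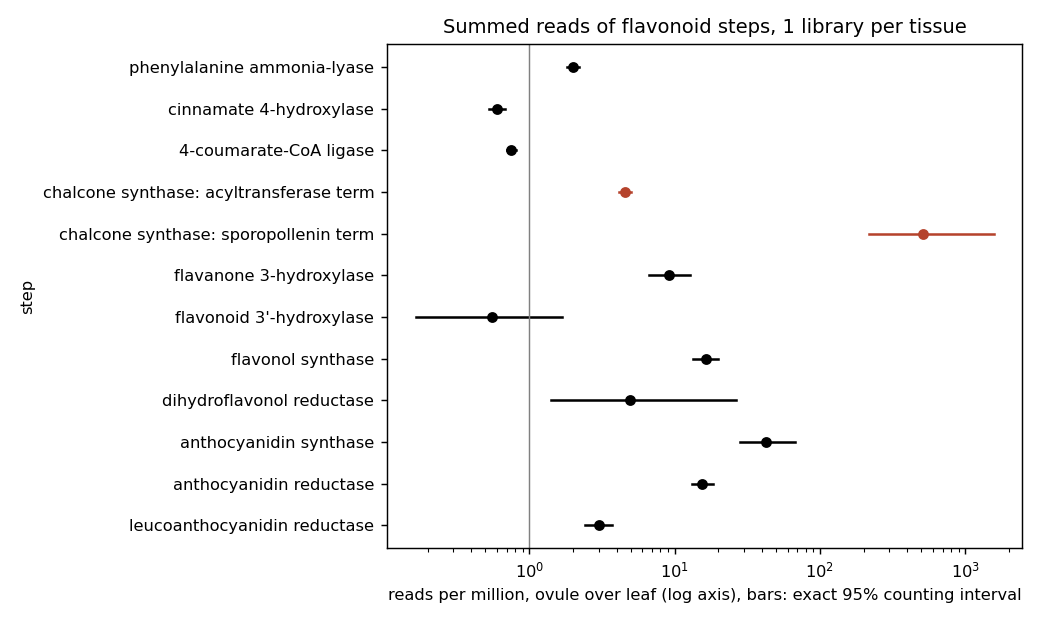
Ratio of summed RPM, ovule over leaf, on a log axis for each flavonoid step, with exact 95% counting intervals; the vertical line marks no difference. The red points are chalcone synthase, 4.55 for the acyltransferase-annotated copies and 509 for the sporopollenin-annotated ones.

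With 2 libraries, likeness of pattern reduces to 1 ratio. Among 2272 other sequences with a described function and at least 200 reads, the 5 nearest to the 9.14-fold of summed chalcone synthase were a cytochrome P450 86B1-like sequence (CL5898.Contig2, 9.14-fold), a PSF1-like DNA replication protein (Unigene480, 9.20-fold), an arginine decarboxylase (Unigene24415, 8.96-fold), an SPX domain protein (Unigene5817, 8.94-fold) and a BTB/POZ domain protein (Unigene7616, 8.91-fold). The likeness is over 2 libraries only, and the counting interval of Unigene5817, for example, ran from 5.81 to 14.4. It is also a likeness to a sum of groups at 509-fold and 4.55-fold, not to any single copy.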

How the data were processed

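Per the file headers, the deposited tables give, per reference sequence, a count of uniquely mapped reads, a length, the percent of bases covered and the authors' RPKM value. Assembler, aligner and BLAST settings: not given in the sources used here. Deposited counts summed to the header's total, and RPKM followed from count, length and total within a relative tolerance of 1e-06. Both tables were joined by identifier, an absent sequence having 0 reads.

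Folds are ratios of reads per 1000000 (RPM) with exact Clopper-Pearson 95% intervals, levels have exact Poisson intervals, and a library at 0 was set at 3 reads. Intervals cover counting error only. Read lengths and positions assume 49-base reads. Calls used log2 of RPKM + 0.5, which understates differences of low sequences. Python 3.11.15, scipy 1.17.1 and pandas 2.3.3 were used, and edgeR 4.0.16 for TMM factors alone. Intervals were checked on simulated counts. Named sequences were all members, the most-read sequence of each other flavonoid step, and the 5 nearest in ratio; sequences of the sporopollenin term and 2 sequences outside the rule were chosen after their values were seen. Members and lists were chosen with earlier results of these data known. Patterns for other polyketide synthases and for PCNA matched no sequence. Alternatives were pseudocount, filter, scaling and subsets of copies.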

Additional observations from a re-analysis of the deposited data

How the results depend on the processing

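Both groups of copies stayed higher in ovule under every alternative run. For all copies the 9.14-fold ovule excess was 8.22 under TMM scaling, 7.74 over assembled copies, 161 over GenBank copies, 5.78 without the most-read copy and 4.60 with reads held at start positions. For the acyltransferase-annotated copies it was 4.09 under TMM scaling, 3.95 without the most-read copy, 32.0 over GenBank copies and 3.35 with held reads. For the sporopollenin-annotated copies it was 140 with held reads. Their share of the ovule reads was 46.6% in RPKM and 27.8% with held reads. The held-read alternative and those on single groups were chosen after seeing the data. Calls toward leaf went from 0 to 1 (Unigene15825) under TMM scaling and in TPM, and the median over all judged sequences shifted likewise, from -0.10 (log2) to -0.24 and -0.25. Calls toward ovule stayed at 6, or 5 at an RPKM of at least 5. At an RPKM of at least 5, calls in the flavonoid list fell from 11 to 6 toward leaf and from 36 to 27 toward ovule. The median of the list was then 2.61. No description held "-like" or stilbene synthase, so these alternatives changed nothing. No paired analysis was possible because each tissue has 1 library. At this depth 8 copies rest on fewer than 20 reads and have no usable ratio, apart from AY647263.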

Other observations

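The deposited flavonoid biosynthesis term, chosen for a look with the values known, was borne by 24 sequences and by none of the 14 chalcone synthase copies. Its reads leaned to leaf, with 1890 in ovule and 3024 in leaf, while 6 of its 20 judged sequences were called toward ovule, near the 27.3% of all sequences, and 4 toward leaf, where 35.1% were, and the median log2 ratio was -0.13. The pollen exine formation term, which names the outer pollen wall and likewise held none of the copies, had 17 sequences with 2538 and 1145 reads. Of its 16 judged sequences, 10 were called toward ovule and 2 toward leaf, beside the same shares, and the median was 1.14. Of the 16, 4 were judged through ovule alone and 3 through leaf alone.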
